A study of Mus musculus with 12 samples.

Results

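The genes described here are 39 genes of mitosis and the spindle, taken from a list of 40 named genes and compared across tumours grown in fatty and in healthy liver. A gene was included where a row of the deposited array table carried its symbol alone, and where several rows did, the row of highest average over the 12 arrays was to be taken. The 39 genes each had 1 such row and are a small part of the 22180 genes with a value. Ccnb1, which encodes a mitotic cyclin, is not analysed here. All 39 genes lay above the limit used here for a measured gene, the median of the whole table at 4.93 on the log2 scale, on all 12 arrays.

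The tissue was mouse colorectal cancer, a tumour of the large bowel, placed in the liver of mice. The 4 groups were tumours in fatty liver under an antiangiogenic treatment that the labels call anti-VEGF, tumours in fatty liver under vehicle, tumours in healthy liver under anti-VEGF, and tumours in healthy liver under vehicle. VEGF is vascular endothelial growth factor, the main signal for the growth of new vessels. Each group held 3 arrays, from 3 mice per the design text of the series, and all 4 groups carried the same kind of tumour. The labels name no cell line, mouse strain, diet, antibody, dose or time, which limits what each group stands for. Tumour tissue was measured in bulk, so fewer dividing cells and less of a transcript per cell cannot be told apart.

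Cells enter mitosis when the kinase Cdk1, bound to a B-type or A-type cyclin, is switched on by phosphatases of the Cdc25 family. The spindle then attaches to chromosomes at their kinetochores, a checkpoint holds back anaphase until all chromosomes are attached, and the anaphase-promoting complex (APC/C), a ubiquitin ligase, ends mitosis by marking cyclins and securin for destruction. Most genes of this stage are transcribed together late in the cell cycle, by the MuvB complex with B-Myb and Foxm1, and are shut off in resting cells by the DREAM complex, which acts at a promoter element called the CHR, for cell cycle genes homology region. For that reason their transcripts are widely read as a measure of how many cells in a tissue are dividing.

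The tumour label was checked against 15 epithelial markers. Of the 14 with a row, Krt8, Krt18, Cdh1, Cldn3 and Lgals4 lay above the limit on all 12 arrays and Cdx2, an intestinal transcription factor, on 4. Lgals4, at 5.03 to 5.53, and Cldn3, at 5.52 to 6.11, were not far above it. Epcam, Krt19, Krt20, Cdh17, Cldn4, Cldn7, Cdx1 and Vil1, which mark intestinal epithelium, were below the limit on every array. The measured markers did not differ in 1 direction between the livers. The keratin genes Krt8 and Krt18 were lower on every fatty liver array, at 9.12 to 10.04 for Krt8 and 6.47 to 7.25 for Krt18, against 10.17 to 10.82 and 7.41 to 8.36 in healthy liver. Both passed as lower in limma, at an adjusted p of 0.05, under vehicle (-0.84 and -0.88) and under anti-VEGF (-0.87 and -1.28), whereas Cdh1, the E-cadherin gene, passed as higher (2.37 under vehicle and 1.61 under anti-VEGF). The part of tumour cell content in the mitosis values was not tested. Of 17 hepatocyte genes with a row, 10, Alb among them, were below the limit on all 12 arrays. Apoa1, Apoa2, Apoc3, Ttr, Hp and Ass1 were above it on all 12, but Apoa1, Apoa2, Apoc3 and Ttr stayed near it, at 4.97 to 5.75. The 7 measured hepatocyte genes did not differ in 1 direction. Hp, the haptoglobin gene, was higher in fatty liver, by 2.93 under vehicle and 2.83 under anti-VEGF, and Ass1 by 0.59 under vehicle. Under anti-VEGF Apoc3 (-0.4), Apoa1 (-0.35) and Hnf4a (-0.29) passed as lower, all with values near the limit. Medians of the 7 genes were -0.03 under vehicle and -0.17 under anti-VEGF.

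Some arrays were nearly copies of each other and others stood apart. Over the 13286 tested genes, the difference between 2 arrays had an SD of 0.163 for fatty liver vehicle arrays 1 and 3, of 0.163 for healthy liver vehicle arrays 1 and 3, and of 0.148 to 0.156 for the 3 healthy liver arrays under anti-VEGF. Other pairs within groups had 0.391 to 0.636. The values do not tell whether arrays so alike stem from separate mice, and counts of genes are given below with such arrays averaged as well. Xist, the transcript of the inactive X chromosome of females, was 10.58 and 10.45 on vehicle arrays 1 and 3 of fatty liver, 8.10 and 8.43 on vehicle arrays 1 and 3 of healthy liver, and at most 4.32 on the other 8 arrays. No anti-VEGF array was high in Xist. In comparisons of anti-VEGF with vehicle, and in the interaction, treatment and what Xist marks therefore cannot be fully told apart. Anti-VEGF array 3 of fatty liver and vehicle array 2 of each liver differed from the other arrays of their groups in the mitosis genes themselves and are described with the results.

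The promoters of these genes carried the letters of the CHR more often than promoters in general. RefSeq windows on GRCm38.p6, from 250 bases before to 50 bases after each gene's start, were found for 32 of the 39 genes. Ccna2, Cdc25c, Aurkb, Kif20a, Tpx2, Foxm1 and Dlgap5 were not matched. The CHR was searched as TTTGAA, or TTCAAA on the other strand, and 22 of the 32 genes held it, which is 68.8%, against 20.2% of all 27025 genes of the table and 14.2% of the 10410 tested genes with a window. The CCAAT box, searched as CCAAT or ATTGG, was held by 23 genes, 71.9%, against 41.1% of all genes. Both elements stood in the windows of 19 genes, 59.4%, against 7.97% of all genes. The variant TTCGAA, which reads the same on both strands, was in 4 windows, those of Cdc25b, Bub1, Bub1b and Top2a. A match is a description of the letters and not a bound site.

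Windows of 5 genes that hold both elements are shown because the CHR and the CCAAT box lie close to the start in each, and that of Pttg1 because it held no match to any of the 3 motifs and because it was not among the genes that passed under vehicle. Capitals mark matches to the CHR or the CCAAT box on either strand, and each sequence runs 5′ to 3′ on the gene's own strand. The windows lie on GRCm38.p6 at chr4:118437294-118437593 (-) for Cdc20, chr10:69352863-69353162 (-) for Cdk1, chr9:70421505-70421804 (-) for Ccnb2, chr7:122159185-122159484 (+) for Plk1, chr2:172370521-172370820 (-) for Aurka and chr11:43425932-43426231 (-) for Pttg1, with the strand in brackets.
Cdc20: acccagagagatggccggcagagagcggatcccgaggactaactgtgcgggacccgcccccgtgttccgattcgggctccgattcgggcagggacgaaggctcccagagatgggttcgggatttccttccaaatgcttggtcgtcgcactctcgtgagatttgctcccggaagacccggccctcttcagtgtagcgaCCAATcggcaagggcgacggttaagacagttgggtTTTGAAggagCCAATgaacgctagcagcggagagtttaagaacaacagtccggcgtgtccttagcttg
Cdk1: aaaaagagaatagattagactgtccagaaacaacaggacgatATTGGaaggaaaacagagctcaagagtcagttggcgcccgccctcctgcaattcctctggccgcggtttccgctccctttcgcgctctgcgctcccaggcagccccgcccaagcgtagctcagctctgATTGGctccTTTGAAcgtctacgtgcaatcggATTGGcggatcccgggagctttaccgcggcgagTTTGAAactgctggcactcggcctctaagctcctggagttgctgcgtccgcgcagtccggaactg
Ccnb2: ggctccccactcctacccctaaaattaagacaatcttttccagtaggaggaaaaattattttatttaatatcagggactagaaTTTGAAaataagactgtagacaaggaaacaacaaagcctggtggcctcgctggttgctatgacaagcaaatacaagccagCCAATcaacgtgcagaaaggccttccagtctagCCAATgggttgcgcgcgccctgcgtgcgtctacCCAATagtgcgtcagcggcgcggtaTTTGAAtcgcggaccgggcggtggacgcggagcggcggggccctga
Plk1: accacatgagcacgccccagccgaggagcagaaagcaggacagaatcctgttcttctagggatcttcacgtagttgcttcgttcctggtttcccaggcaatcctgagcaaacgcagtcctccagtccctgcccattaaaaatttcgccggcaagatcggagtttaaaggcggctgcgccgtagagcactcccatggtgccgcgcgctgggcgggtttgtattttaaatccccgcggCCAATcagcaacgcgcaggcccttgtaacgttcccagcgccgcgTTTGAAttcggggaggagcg
Aurka: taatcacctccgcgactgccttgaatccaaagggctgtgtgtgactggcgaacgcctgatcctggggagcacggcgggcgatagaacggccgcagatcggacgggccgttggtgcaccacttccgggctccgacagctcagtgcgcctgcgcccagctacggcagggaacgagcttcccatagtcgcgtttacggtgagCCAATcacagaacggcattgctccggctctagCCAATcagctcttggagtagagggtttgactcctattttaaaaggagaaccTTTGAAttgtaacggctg
Pttg1: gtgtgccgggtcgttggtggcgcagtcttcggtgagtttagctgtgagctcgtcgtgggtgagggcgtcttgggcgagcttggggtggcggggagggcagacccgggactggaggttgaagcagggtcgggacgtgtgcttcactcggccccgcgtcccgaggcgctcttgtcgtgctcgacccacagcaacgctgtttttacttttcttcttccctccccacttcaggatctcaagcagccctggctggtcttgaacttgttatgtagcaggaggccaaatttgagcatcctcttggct

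The CHR matches of the mitosis genes clustered at the start site. Of 28 matches, 21 lay within 60 bases of the start, in 20 genes. In Cdc20 the CHR lay between a pair of CCAAT boxes, in Cdk1 a CHR followed 2 of the 3 CCAAT boxes, and in Plk1 and Aurka the CHR lay after the start with the CCAAT boxes ahead of it. Among 34 other mitosis genes with a window, 64.7% held a CHR, and among 24 DNA replication genes 20.8% held a CHR and 66.7% a CCAAT box.

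**Figure D1:**
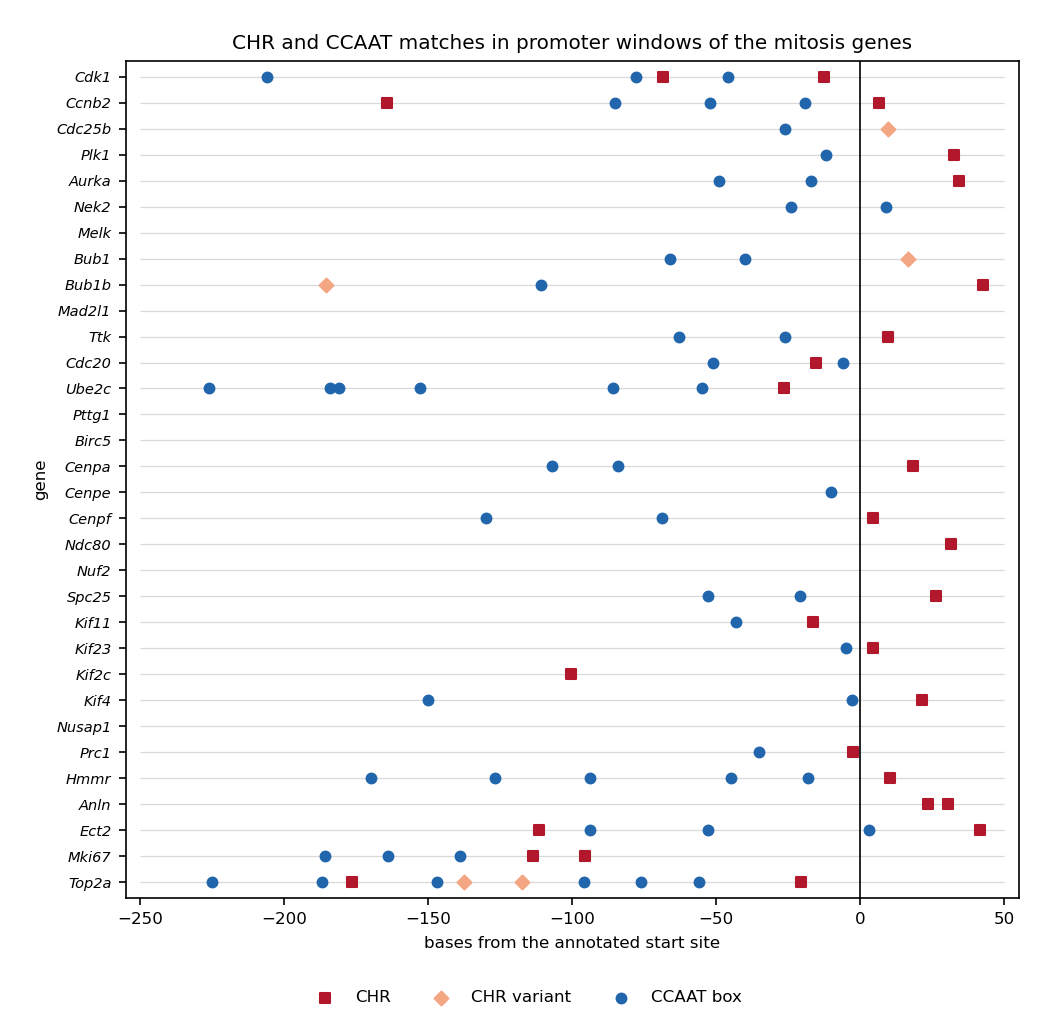
Matches to the CHR (TTTGAA), the CHR variant (TTCGAA) and the CCAAT box in the promoter windows of 32 mitosis genes. The x axis is the distance from the annotated start in bases, each row is a gene, and each symbol is a match on either strand. Of the 28 CHR matches, 21 lie within 60 bases of the start, and Melk, Mad2l1, Pttg1, Birc5, Nuf2 and Nusap1 have no match.

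Under vehicle, the mitosis genes were lower in tumours of fatty liver than in tumours of healthy liver, and nearly the whole list moved. Of the 39 genes, 36 fell and 0 rose in limma at an adjusted p of 0.05, against 30.4% of all tested genes lower and 19.2% higher. The median log2 difference of the 39 genes was -0.83, which puts fatty liver at 0.56 of the healthy liver level, where the median of all tested genes was -0.12. In 37 of the 39 genes every fatty liver array was below every healthy liver array, a pattern that 37.2% of all tested genes showed. The exceptions to the test were Birc5, Mki67 and Pttg1. These counts depended on how the nearly alike arrays were counted: with each such set averaged into 1 sample, which leaves 8 samples, 0 of 39 passed in limma, the smallest adjusted p was 0.0745, 30 had an unadjusted p under 0.05, 38 differences were still negative, and 0.956% of all tested genes were called lower.

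**Figure D2:**
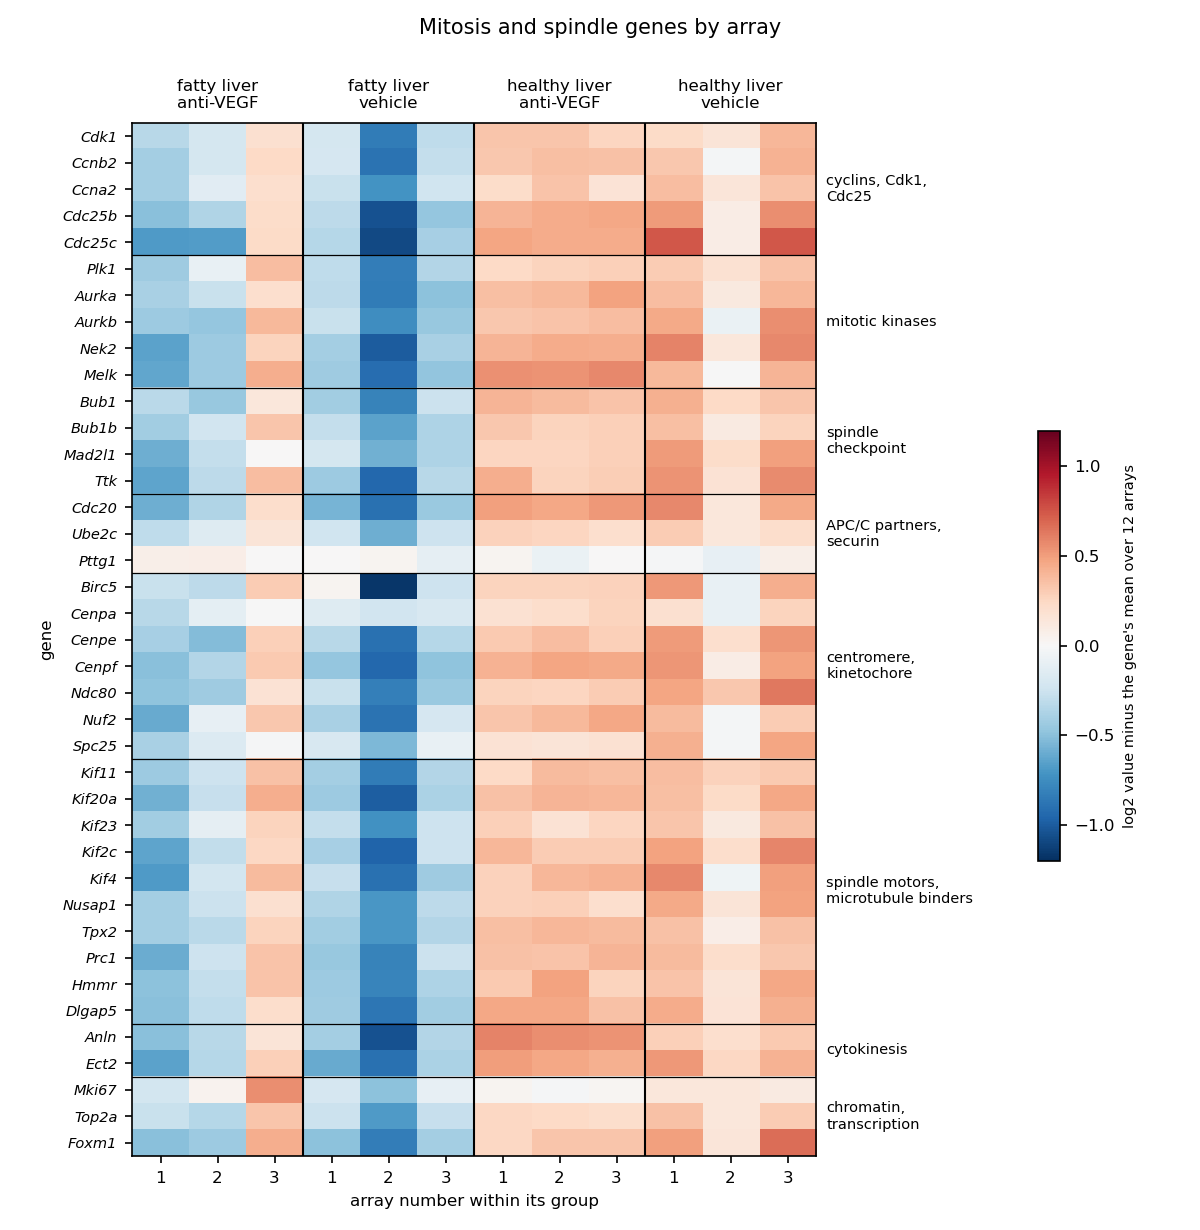
Values of the 39 mitosis genes on the 12 arrays, as the log2 value minus the gene's mean over the 12 arrays (colour scale, red above and blue below the mean). Columns are arrays in their 4 groups, and rows are genes ordered by role. Vehicle array 2 of fatty liver is the darkest blue column, anti-VEGF array 3 of fatty liver is red like the healthy liver arrays for most genes, and the Pttg1 row is nearly white throughout.

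The cyclins, Cdk1 and its activating phosphatases fell in 5 of 5 cases, with a median difference of -0.71. Cdk1, the kinase that drives entry into mitosis, had log2 values of 9.86, 9.23 and 9.77 on the fatty liver vehicle arrays, against 10.30, 10.23 and 10.47 on the healthy liver vehicle arrays. No value overlapped, array 2 was the lowest of each group, and the difference was -0.71 (SE 0.17, limma adjusted p = 0.00737). Ccnb2, a B-type cyclin that partners Cdk1, had 10.20, 9.52 and 10.12 in fatty liver, against 10.73, 10.38 and 10.82 in healthy liver, and differed by -0.70 (SE 0.21, adjusted p = 0.0174). Cdc25c, a phosphatase that activates Cdk1, showed the largest difference of the list. It had 7.29, 6.55 and 7.23 in fatty liver, against 8.37, 7.72 and 8.37 in healthy liver, again without overlap, and differed by -1.13 (SE 0.28, adjusted p = 0.00816), a fold of 0.46. The related phosphatase gene Cdc25b differed by -0.99 and Ccna2, an A-type cyclin, by -0.70.

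The mitotic kinases also fell in 5 of 5 cases, with a median of -0.84. Plk1, a polo-like kinase that acts at centrosomes, kinetochores and the midzone, had 9.52, 9.0 and 9.47 in fatty liver, against 10.13, 10.01 and 10.17 in healthy liver (difference -0.77, SE 0.19, adjusted p = 0.00749). Aurka, the Aurora kinase of the spindle poles, had 8.82, 8.29 and 8.64 in fatty liver, against 9.50, 9.25 and 9.53 in healthy liver (difference -0.84, SE 0.17, adjusted p = 0.0031). Nek2, which helps to separate centrosomes, had 8.12, 7.53 and 8.14 in fatty liver, against 9.13, 8.67 and 9.11 in healthy liver (difference -1.04, SE 0.24, adjusted p = 0.00578). The groups did not overlap for any of these 3 kinases, and Aurkb, the Aurora kinase of the chromosomal passenger complex, and Melk fell by 0.80 and 0.87 on the log2 scale.

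All 4 genes of the spindle checkpoint fell, with differences of -0.99 to -0.68. Mad2l1, which encodes the Mad2 protein that binds and restrains Cdc20, had 9.37, 9.0 and 9.21 in fatty liver, against 10.09, 9.80 and 10.07 in healthy liver (difference -0.79, SE 0.15, adjusted p = 0.00238). Bub1, a checkpoint kinase of the kinetochore, had 9.42, 9.04 and 9.58 in fatty liver, against 10.27, 10.08 and 10.17 in healthy liver (difference -0.83, SE 0.16). The target of that checkpoint, Cdc20, is the activator of the APC/C. Cdc20 had 9.43, 9.09 and 9.54 in fatty liver, against 10.56, 10.12 and 10.44 in healthy liver, without overlap, and differed by -1.02 (SE 0.20, adjusted p = 0.00256), a fold of 0.49. Ube2c, the ubiquitin-conjugating enzyme that works with the APC/C, fell by 0.57 on the log2 scale.

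Pttg1 encodes securin, the inhibitor of separase that the APC/C destroys at anaphase, and it did not pass in fatty against healthy liver under vehicle. It had 7.84, 7.86 and 7.72 in fatty liver under vehicle, against 7.82, 7.73 and 7.90 in healthy liver under vehicle, and the difference was -0.01 (SE 0.08, adjusted p = 0.938). Its values on all 12 arrays lay between 7.72 and 7.91. Pttg1 was also the gene whose deviations from the group means followed the mean of the other 38 members least, with a correlation over the 12 arrays of -0.21, against a median of 0.96 for the 39 genes and at least 0.8 in 37 of them. These correlations are a description over arrays that are in part nearly alike.

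Genes of the centromere and kinetochore fell in 6 of 7 cases, with a median of -0.75. Ndc80, the microtubule-binding subunit that gives its name to the outer kinetochore complex, had 8.97, 8.41 and 8.79 in fatty liver, against 9.71, 9.56 and 9.87 in healthy liver (difference -0.99, SE 0.18, adjusted p = 0.00216). Cenpf, a large kinetochore protein, had 8.40, 7.92 and 8.38 in fatty liver, against 9.39, 8.95 and 9.35 in healthy liver (difference -1.0, SE 0.21, adjusted p = 0.00403). The smallest difference that passed was that of Cenpa, the histone H3 variant that marks centromeres. Cenpa had 9.23, 9.15 and 9.19 in fatty liver, against 9.57, 9.29 and 9.65 in healthy liver (difference -0.31, SE 0.11, adjusted p = 0.0371), and its groups were separated by a narrow gap. Birc5, which encodes survivin of the chromosomal passenger complex, had 7.68, 6.48 and 7.40 in fatty liver, against 8.17, 7.56 and 8.08 in healthy liver, with 1 fatty liver array inside the healthy liver range, and did not pass (difference -0.75, SE 0.29, adjusted p = 0.0519).

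All 10 spindle motor and microtubule-binding genes fell, within a narrow range of -0.96 to -0.69 and with a median of -0.85. They comprise the kinesins Kif11, Kif20a, Kif23, Kif2c and Kif4 and the spindle proteins Nusap1, Tpx2, Prc1, Hmmr and Dlgap5. Kif11, the motor that pushes spindle poles apart, differed by -0.85, and Kif23, a motor of the central spindle, by -0.69. Both cytokinesis genes fell. Anln, the scaffold protein anillin of the contractile ring, had 9.76, 9.12 and 9.81 in fatty liver, against 10.45, 10.37 and 10.48 in healthy liver (difference -0.87, SE 0.19, adjusted p = 0.00503). Ect2, which activates RhoA at the cleavage site, had 9.94, 9.65 and 10.16 in fatty liver, against 11.06, 10.79 and 10.96 in healthy liver (difference -1.02, SE 0.21, adjusted p = 0.0033). Neither gene's groups overlapped.

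Of the remaining 3 genes, which act on chromatin and transcription, Foxm1 and Top2a fell and Mki67 did not pass. Foxm1, a transcription factor of late cell cycle genes, had 8.27, 7.93 and 8.36 in fatty liver, against 9.26, 8.91 and 9.43 in healthy liver (difference -1.02, SE 0.23, adjusted p = 0.00582). Top2a, the topoisomerase that untangles sister chromatids, had 9.86, 9.44 and 9.84 in fatty liver, against 10.47, 10.25 and 10.42 in healthy liver (difference -0.67, SE 0.17, adjusted p = 0.00996). Mki67, the source of the Ki-67 proliferation marker, had 9.70, 9.41 and 9.81 in fatty liver, against 10.04, 10.04 and 10.01 in healthy liver, without overlap but with a difference of -0.39 (SE 0.17, adjusted p = 0.0776). Mki67, Cenpa and Pttg1 had the 3 smallest differences of the list.

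The presence of a CHR in the promoter window did not separate the sizes of these differences. The 22 genes with a CHR had a median difference under vehicle of -0.82, with a range of -1.02 to -0.31, and the 10 genes without one had a median of -0.82, with a range of -1.04 to -0.01. Pttg1 was among the 10 without, but so were Nek2 and Mad2l1, which fell. The variant TTCGAA was not counted as a CHR here, and Cdc25b (-0.99) and Bub1 (-0.83), among the 10 without, held it.

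Under anti-VEGF the mitosis genes were again lower in fatty liver, with a smaller median difference. Of the 39 genes, 16 were lower and 0 higher in fatty liver, against 27.6% of all tested genes lower and 18.2% higher. The median difference was -0.52, or 0.70 of the healthy liver level, against -0.13 for all tested genes, and 37 of the 39 differences were negative. In 23 genes the groups did not overlap, a pattern of 36.6% of all tested genes. With nearly alike arrays averaged, where the 3 healthy liver anti-VEGF arrays become 1 sample, 0 of 39 passed in limma, the smallest adjusted p was 0.233 and 0 had an unadjusted p under 0.05.

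The genes that passed under anti-VEGF came from all roles but chromatin and transcription. Anln had 9.66, 9.83 and 10.32 in fatty liver, against 10.76, 10.72 and 10.70 in healthy liver (difference -0.79, SE 0.19, adjusted p = 0.00876). Cdc20 had 9.40, 9.63 and 10.20 in fatty liver, against 10.48, 10.45 and 10.51 in healthy liver (difference -0.74, SE 0.20, adjusted p = 0.0128). Mad2l1 had 8.99, 9.29 and 9.58 in fatty liver, against 9.84, 9.84 and 9.86 in healthy liver (difference -0.56, SE 0.15, adjusted p = 0.0136). In each of them array 3 was the highest of the fatty liver arrays and still below all healthy liver arrays under anti-VEGF. Bub1 differed by -0.58 (SE 0.16, adjusted p = 0.0162), Cenpa by -0.37 (SE 0.11, adjusted p = 0.0198) and Cdc25c by -0.82. The other 10 that passed were Cdc25b, Aurka, Nek2, Melk, Ube2c, Cenpf, Ndc80, Tpx2, Dlgap5 and Ect2. Plk1 had 9.40, 9.74 and 10.20 in fatty liver, against 10.06, 10.09 and 10.11 in healthy liver, with array 3 above the healthy liver arrays, and did not pass (difference -0.31, SE 0.19, adjusted p = 0.203).

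**Figure D3:**
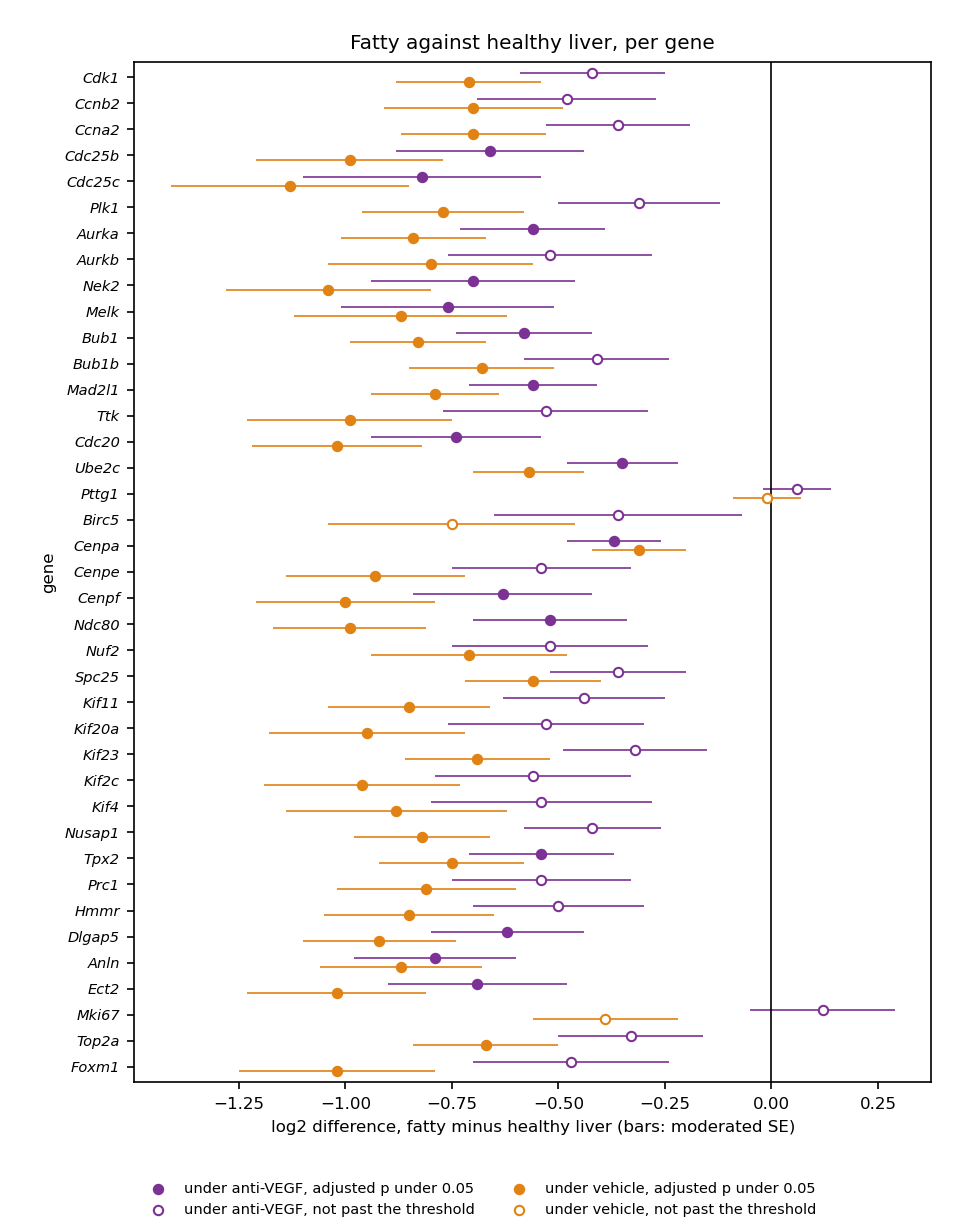
Log2 difference between fatty and healthy liver for each of the 39 mitosis genes, under anti-VEGF (purple) and under vehicle (orange), with bars of 1 moderated SE. Filled points passed limma at an adjusted p of 0.05 (16 under anti-VEGF, 36 under vehicle). Points under vehicle lie further left for 38 of the 39 genes, and those of Pttg1 lie near 0.

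Across the 39 genes the differences between livers under anti-VEGF and under vehicle, which share no array, had a Pearson r of 0.82. Genes are not independent replicates, and the value is a description. The difference was less negative under anti-VEGF in 38 of the 39 genes, with Cenpa as the exception, but the difference between the comparisons, which is the interaction of liver and treatment, passed in limma for 0 genes. Its median over the 39 genes was 0.33 (range -0.06 to 0.54), 0 had an unadjusted p under 0.05, and the smallest adjusted p was 0.969, for Mki67 (0.51, SE 0.24). Of all tested genes, 0.0% passed in that test.

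The fatty liver arrays under anti-VEGF were uneven. On anti-VEGF array 3 of fatty liver, the 39 genes lay a median of 0.64 above the mean of arrays 1 and 2 of that group, and 38 of the 39 were above both. On that array, 33 of the 39 lay between the lowest and highest healthy liver values, 2 above them (Mki67 at 10.46 and Plk1 at 10.20) and 4 below them (Bub1, Mad2l1, Ndc80 and Anln). Arrays 1 and 2 of the same group were both below the healthy liver range for 37 of the 39 genes, all but Mki67 and Pttg1. Without array 3, 36 of the 39 genes passed as lower under anti-VEGF. Without array 1 of that group 3 passed, without array 2 it was 4, and without 1 of the healthy liver anti-VEGF arrays 4 or 5 passed.

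**Figure D4:**
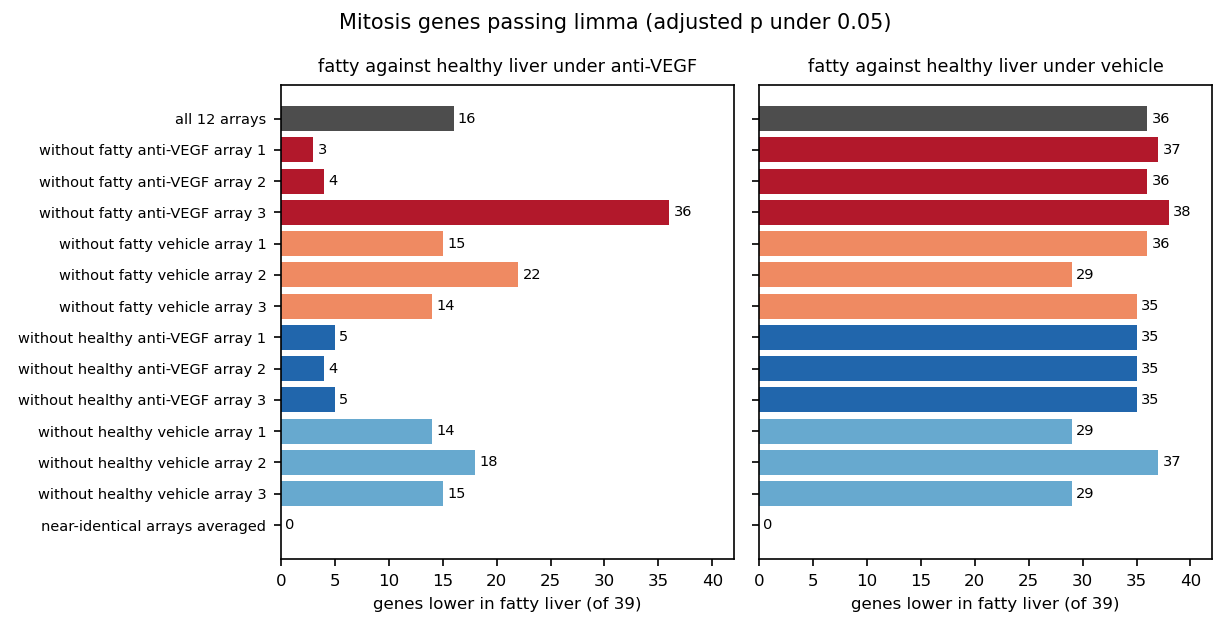
Number of the 39 mitosis genes lower in fatty than in healthy liver at a limma adjusted p of 0.05, under anti-VEGF (left) and under vehicle (right), with all 12 arrays, with each array left out in turn, and with nearly alike arrays averaged. Bars start at 0 and numbers stand beside them. The count under anti-VEGF runs from 3 to 36 over the left-out arrays and that under vehicle from 29 to 38, and both are 0 with nearly alike arrays averaged.

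Array 2 of the vehicle groups stood on the other side. In fatty liver it was the lowest of all 12 arrays for 36 of the 39 genes, with a median of 0.45 below arrays 1 and 3 of its group. In healthy liver it was below both other vehicle arrays for 38 of the 39 genes, with a median of 0.28 below them. Without the fatty liver array 29 genes passed under vehicle, and without the healthy liver array 37 did. Over all 12 arrays, 4 genes had all 6 fatty liver values below all 6 healthy liver values, namely Bub1, Mad2l1, Ndc80 and Anln, against 16.6% of all tested genes.

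Anti-VEGF against vehicle gave no call in either liver. Only vehicle arrays were high in Xist, so treatment is in part confounded with what Xist marks in both livers. In fatty liver 0 of 39 genes passed in limma (0.00753% of all tested genes lower and 0.0% higher), and 4 had an unadjusted p under 0.05, namely Aurka, Plk1, Kif11 and Mki67. All 39 differences were positive, from 0.04 to 0.46 with a median of 0.34, a fold of 1.26, but 0 genes had groups that did not overlap, against 3.07% of all tested genes higher and 4.99% lower in that way. Cdk1 averaged 9.95 ± 0.27 under anti-VEGF and 9.62 ± 0.34 under vehicle (SD, n = 3 each), and Foxm1 averaged 8.60 ± 0.52 under anti-VEGF and 8.19 ± 0.23 under vehicle. With single arrays left out the median ran from 0.12, without anti-VEGF array 3, to 0.51. Without anti-VEGF array 1, 25 genes were higher at an unadjusted limma p under 0.05, and without anti-VEGF array 3 it was 0. With any single array left out, 0 genes passed.

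In healthy liver 0 of 39 passed in limma and 0 had an unadjusted p under 0.05, where 0.0% of all tested genes passed in either direction. The median was 0.03, with a range of -0.20 to 0.29. Cdc20 averaged 10.48 ± 0.03 under anti-VEGF and 10.37 ± 0.22 under vehicle, and Cdk1 averaged 10.37 ± 0.04 under anti-VEGF and 10.33 ± 0.12 under vehicle (SD, n = 3 each). Anln, Melk and Tpx2 were higher and Mki67 and Ndc80 lower under anti-VEGF without overlap, counts to read against 13.1% of all tested genes higher and 11.7% lower in that way. Anln had 10.76, 10.72 and 10.70 under anti-VEGF, against 10.45, 10.37 and 10.48 under vehicle, and its difference was 0.29, short of the threshold.

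Other mitosis genes were lower in fatty liver under both treatments. Of 42 other measured mitosis genes, 38 were lower and 0 higher in fatty liver under vehicle, with a median of -0.87. Under anti-VEGF 21 were lower and 0 higher, with a median of -0.54. The shares of all tested genes, for these and the next lists, were 30.4% lower and 19.2% higher under vehicle. Under anti-VEGF they were 27.6% lower and 18.2% higher. Bora, which helps Aurora A to activate Plk1, differed by -0.81 under vehicle and by -0.68 under anti-VEGF. Cks2, a small Cdk-binding subunit, differed by -0.54 under vehicle and by -0.49 under anti-VEGF. Of 15 genes for APC/C subunits and an activator of the complex, 10 fell under vehicle, such as Cdc16 (-0.53) and Cdc27 (-0.42), with a median of -0.34. Under anti-VEGF 7 of the 15 fell, with a median of -0.30. Of 27 DNA replication genes, 20 fell under vehicle with a median of -0.57, such as the checkpoint kinase gene Chek1 (-0.92) and Rrm2, a subunit of ribonucleotide reductase (-0.85). Under anti-VEGF 6 of the 27 replication genes fell and 1 rose, with a median of -0.34, and 6 of 27 is a smaller share than the 27.6% of all tested genes that fell in that comparison. The gene that rose was E2f2, a transcription factor of the E2F family, at 0.34, and it is named after its value was seen.

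Transcripts of most immune lists differed in the opposite direction between the livers, and were set beside the mitosis genes array by array. The 5 measured B and plasma cell genes did not move in 1 direction. Under vehicle 3 of them were lower and 2 higher in fatty liver (median -0.6), against 30.4% and 19.2% of all tested genes. Under anti-VEGF 3 were lower and 1 higher (median -0.38), against 27.6% and 18.2%. The 10 pan-leukocyte genes and the 19 macrophage genes were above the limit on all 12 arrays. In fatty liver under vehicle all 10 pan-leukocyte genes (median 2.14) and 18 of the 19 macrophage genes (median 1.92) were higher, against 19.2% of all tested genes. Under anti-VEGF it was again all 10 (median 2.63) and 18 of 19 (median 2.32), against 18.2%. Of 20 measured T and NK cell genes, 8 reached the limit on enough arrays only in fatty liver, among them Cd3d, Ncr1 and Gzma, which were above it on 0 healthy liver arrays, so that their choice favoured a higher level there and they are not counted. The other 12 were above the limit on at least 3 healthy liver arrays, and 12 were higher under vehicle (median 2.69) and 10 under anti-VEGF (median 2.02). Of 7 measured neutrophil genes, S100a8, S100a9 and Retnlg entered in that way and are not counted either. The other 4 were Csf3r, Mmp8, Cxcr2 and Mmp9, of which 3 were higher under vehicle, all but Mmp9, and 2 under anti-VEGF, Csf3r and Mmp8. The pan-leukocyte mean of an array was 10.49 to 10.99 in fatty liver and 8.28 to 9.56 in healthy liver, without overlap. With that mean as a covariate in the limma fit, 0 of 39 mitosis genes passed under either treatment (at an unadjusted p under 0.05, 3 were higher under anti-VEGF and 0 differed under vehicle), and the median difference was 0.54 under anti-VEGF and 0.06 under vehicle. Because the livers did not overlap in leukocyte content, the liver and the leukocyte content of the array cannot be told apart in these comparisons.

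Within fatty liver the mitosis mean ran against the means of several cell type lists, the T and NK cell mean among them. Anti-VEGF array 3 had the highest mitosis mean of the 6 fatty liver arrays, 9.45, and the lowest T and NK cell mean, 5.65. Vehicle array 2 had the lowest mitosis mean, 8.40, and the highest T and NK cell mean, 8.49. The other 4 arrays lay between them, at 8.73 to 8.91 for the mitosis genes and 7.59 to 7.92 for the T and NK cell genes. The T and NK cell mean holds all 20 measured genes, also the 8 that reached the limit on enough arrays only in fatty liver. The same anti-VEGF array 3 also had the lowest hepatocyte mean, 5.48, and endothelial mean, 5.92, of the fatty liver arrays, and the lowest tumour epithelium mean of all 12, 6.39. Vehicle array 2 also had the highest hepatocyte mean, 6.15, and endothelial mean, 7.77, of the fatty liver arrays, and its tumour epithelium mean was 6.61. Among the measured hepatocyte genes, Hp had by far the widest range over the fatty liver arrays, 6.0 to 10.41. The hepatocyte and tumour epithelium ranks did not hold for list medians. In fatty liver the hepatocyte median was 5.42 on anti-VEGF array 3 but 5.36 on anti-VEGF array 2. It was 5.53 on vehicle array 2 but 5.68 on anti-VEGF array 1. The tumour epithelium median was 5.74 on anti-VEGF array 3 but 5.67 on healthy liver vehicle array 1. The arrays at the ends set the T and NK cell order, 2 of the 6 were nearly alike, and no coefficient is given.

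Macrophage transcripts stayed high on the fatty liver array with the most mitosis transcripts. Anti-VEGF array 3 of fatty liver had a macrophage mean of 10.91 and a pan-leukocyte mean of 10.49, against 11.10 to 11.29 and 10.73 to 10.99 on the other 5 fatty liver arrays. Both were the lowest of the fatty liver arrays and above every healthy liver array, of which the highest had 10.06 and 9.56. Its mitosis mean of 9.45 lay between the healthy liver extremes of 9.31 and 9.61. Its neutrophil mean of 6.10 was the lowest of the fatty liver arrays, which otherwise had 7.50 to 9.86. That mean holds all 7 measured neutrophil genes, S100a8, S100a9 and Retnlg among them, so it is not set against healthy liver. The part of leukocyte, macrophage, T, NK, neutrophil, hepatocyte, endothelial or tumour cell content in the values of this array was not tested.

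**Figure D5:**
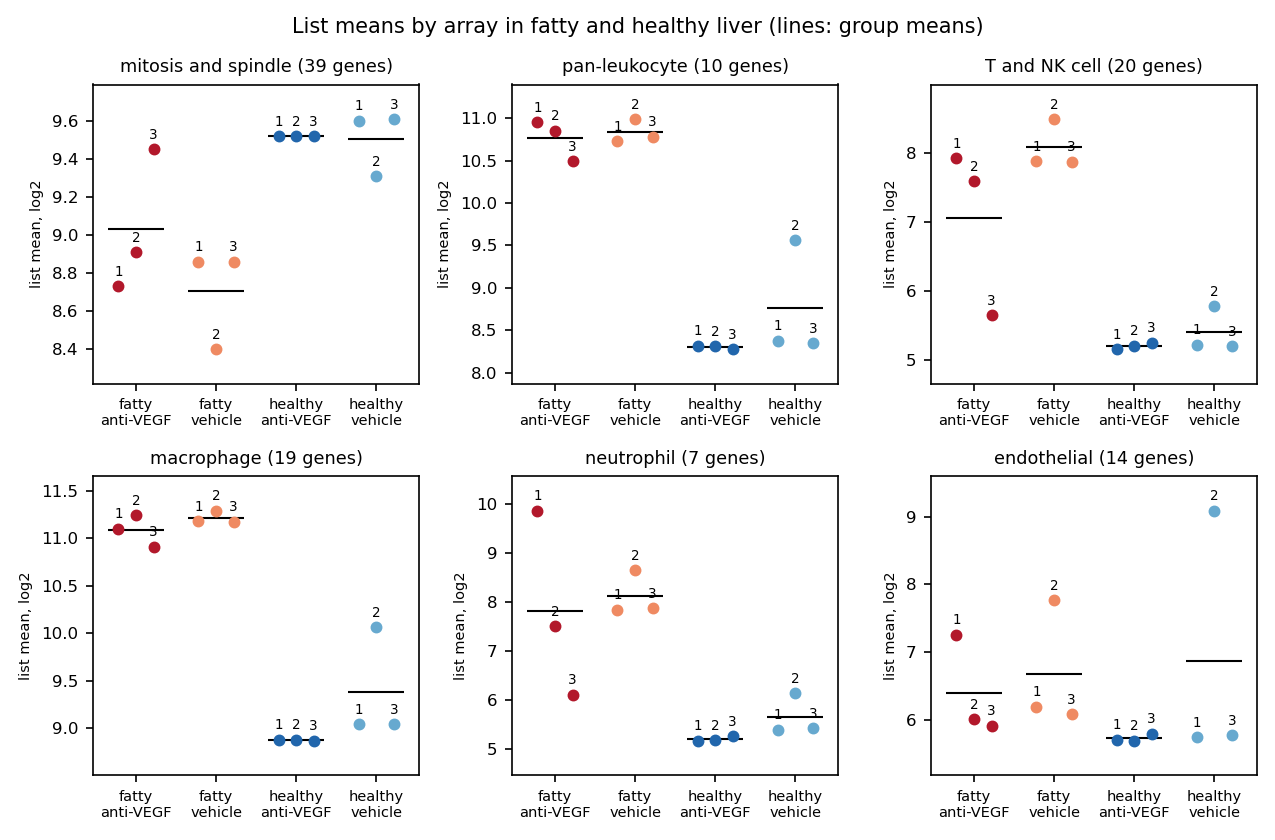
Mean log2 value of the measured genes of 6 lists on each of the 12 arrays, in separate panels with their own y axes. Points are arrays with their number, black lines are group means, and groups run from fatty liver under anti-VEGF to healthy liver under vehicle. Anti-VEGF array 3 of fatty liver is at 9.45 for mitosis genes, near the healthy liver arrays. For macrophage genes it is at 10.91, the lowest of the fatty liver arrays and above all healthy liver arrays. It is the lowest fatty liver array for T and NK cell genes, at 5.65. In the T and NK cell panel 8 of 20 genes, and in the neutrophil panel 3 of 7, reached the limit on enough arrays only in fatty liver. Levels in these panels are therefore not compared between livers.

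In healthy liver vehicle array 2 had the lowest mitosis mean, 9.31, against 9.52 to 9.61 on the other 5 healthy liver arrays. The same array had an endothelial mean of 9.09, against 5.70 to 5.80 on the others, a fibroblast and pericyte mean of 9.73, against 7.46 to 7.56, and a macrophage mean of 10.06, against 8.87 to 9.04. The corresponding array of fatty liver, vehicle array 2, had a fibroblast and pericyte mean of 8.63, against 7.38 on both other vehicle arrays, beside its mitosis mean of 8.40, but anti-VEGF array 1 of that liver had 8.66 with a mitosis mean of 8.73. The part of vessel, fibroblast or macrophage content in these values was not tested.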

How the data were processed

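RNA of 12 tumours was measured on single-colour Affymetrix whole-transcript arrays. The values analysed are log2 values deposited by the authors, 1 column per array, with medians of 4.88 to 4.99. They were made with Affymetrix Expression Console, per the submitters' processing notes; the summarisation, normalization, centring and genome build behind them were not stated, and the range of the values was taken to show a log2 scale. No further normalization was applied. Gene names came from the platform annotation, with 1 symbol on 23521 rows, more than 1 on 1814 rows and no symbol on 16010 rows; only the first kind was used, and 1082 genes had several rows. A gene was tested when its value exceeded the table median of 4.93 on at least 3 arrays, which left 13286 genes. Groups follow the labels, which call the replicates biological.

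A mean per group was fitted to the 12 arrays together with limma 3.58.1 in R 4.3.3 (lmFit, eBayes, 8 residual and 2.4 prior degrees of freedom), with contrasts between livers under each treatment, between treatments in each liver, and their interaction. Genes were called at a two-sided p of 0.05 after Benjamini-Hochberg adjustment over all tested genes. SEs are moderated. The fit was tested on simulated data with independent arrays, which does not cover arrays that are nearly alike. Arrays give no counts, so their number limits the precision. The members and lists were chosen with earlier results of these data known, so the counts within lists are no independent support. All members were named, and from any other list at most 4 genes per comparison, by smallest p, except where stated.

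Replicate numbers are shared between groups. After group means were subtracted, same-numbered arrays correlated at 0.536, 0.701 and 0.549 between the vehicle groups, a pairing that comes from the data alone, and at -0.486 to 0.472 in the other comparisons, which were not taken as paired. Alternatives covered the filter, normalization, centring, the row for a gene, the replicate block, single arrays left out, averaging of arrays that differed by an SD under 0.2, array weights, the arrays in the fit, arrays high in Xist, and a leukocyte covariate. CHR and CCAAT letters were searched in RefSeq promoter windows of GRCm38.p6, and no test was run on them.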

Additional observations from a re-analysis of the deposited data

How the results depend on the processing

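For fatty against healthy liver under vehicle, the number of lower genes was 36 of 39 and stayed between 35 and 38 without the filter, with quantile normalization, centring, the mean of all rows, array weights, the 2 groups alone and the replicate block (37, or 38 in the 6 vehicle arrays alone, a fit added after seeing the data); the block changed no other call of this comparison by more than 1.5 times. In limma it was 0 with nearly alike arrays averaged (30 lower at an unadjusted p under 0.05), 0 without the arrays high in Xist (also 30), which leaves 1 array per vehicle group that is assumed to vary like the others, and 0 with the leukocyte covariate, where the median was 0.06. Leaving out single arrays gave 29 to 38 genes and medians of -0.93 to -0.70. Under anti-VEGF the 16 lower genes became 23 with quantile normalization, 31 with centring, 37 with array weights, 21 with the replicate block, 14 without the filter, 10 with only the groups compared, 10 without the arrays high in Xist, 0 with averaging and 0 with the leukocyte covariate, where the median was 0.54; single arrays left out gave 3 to 36 and medians of -0.75 to -0.32. Averaging and leaving out arrays reduce the samples in the fit; for centring, weights and the covariate the cause was not tested. Anti-VEGF against vehicle gave 1 higher gene in fatty liver and 2 lower genes in healthy liver with array weights, and a median of 0.67 in fatty liver without the arrays high in Xist. Left-out arrays gave no call there or in the interaction (0 in each), with medians of 0.12 to 0.51 in fatty liver, -0.06 to 0.08 in healthy liver and 0.10 to 0.47 for the interaction. With the leukocyte covariate, differences under vehicle turned positive for Ccnb2 (0.38), Cdc20 (0.02), Cdc25c (0.50), Nek2 (0.24), Cenpf (0.15), Cenpa (0.32), Foxm1 (0.22) and Top2a (0.07), and under anti-VEGF for Cdc20 (0.49), Cdc25c (1.12), Aurka (0.41), Nek2 (0.82), Mad2l1 (0.36), Bub1 (0.10), Ndc80 (0.45), Cenpf (0.74), Cenpa (0.38) and Ect2 (0.32); none of them passed. Of 27 results for single genes, all 27 kept their direction and lost the threshold with averaging.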

Other observations

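Genes that hold back the cell cycle did not move in 1 direction, and their counts lay near the shares over all tested genes. Of 19 measured brakes and their partners, 6 were lower and 4 higher in fatty than in healthy liver under vehicle (30.4% lower and 19.2% higher over all genes), with a median of 0.07. Under anti-VEGF 4 were lower and 3 higher (27.6% and 18.2% over all genes), with a median of -0.01. These counts are no result about brakes as a group, and single genes are given as values. Rb1, the retinoblastoma protein gene, was higher in fatty liver under both treatments, by 1.10 under vehicle (SE 0.11, limma adjusted p = 0.000143) and by 1.19 under anti-VEGF (SE 0.11, adjusted p = 4.39e-05). Btg2, an antiproliferative gene induced by p53, was higher by 3.12 under vehicle (SE 0.62) and by 3.43 under anti-VEGF (SE 0.62). E2f5, which encodes an E2F that acts with pocket proteins, differed by -0.81 under vehicle (SE 0.10) and by -0.71 under anti-VEGF (SE 0.10), and E2f4 by -0.48 under vehicle (SE 0.09). Ccng1, a cyclin induced by p53, was higher by 0.44 under anti-VEGF (SE 0.10). Leukocyte transcripts were higher in the same arrays, and their part in these values was not tested.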
